A study of Homo sapiens with 4 samples.

Results

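The cytosolic heat shock proteins described here are 10 genes of chaperones and co-chaperones that heat shock factor 1 (HSF1) can activate, chosen by name as HSPA1A, HSPA1B, HSPA6, HSPA8, HSPH1, DNAJB1, CRYAB, HSPB1, HSP90AA1 and BAG3. All 10 were found among the 39306 gene names of each table, and all 10 passed the filter on low values that left 20221 genes for testing. Total RNA freed of ribosomal RNA was sequenced in 4 libraries of MHCC97H, a cell line from a human hepatocellular carcinoma. The 2 knockdown libraries came from sh-HNRNPM cells, in which HNRNPM, the gene of the splicing regulator heterogeneous nuclear ribonucleoprotein M, was knocked down, and the 2 wild-type libraries from cells labelled HNRNPM wild type. No heat, drug or other stress is named for either group. The labels name no control hairpin for the wild-type cells, no time after knockdown, and do not say whether the replicates were separate cultures or carried the same hairpin, so the p-values speak of library-to-library spread alone, and this could be technical. In bulk RNA, a change in every cell and a change in the share of cells that express a gene cannot be told apart.

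Heat shock proteins keep other proteins folded. HSF1 is held inactive in unstressed cells, and on heat or other damage to proteins it forms trimers that bind heat shock elements, repeated and inverted copies of the letters GAA spaced by a pair of bases, near the start of its target genes. The inducible HSP70 genes HSPA1A, HSPA1B and HSPA6 and the co-chaperones DNAJB1 and BAG3 respond strongly. HSPH1 (an HSP110 nucleotide exchange factor), HSP90AA1 (the inducible HSP90) and the small heat shock proteins HSPB1 and CRYAB are inducible and are often also expressed at rest. HSPA8 encodes the constitutive HSP70 of the cytosol, HSC70. Tumour cells are known to keep parts of this programme active without heat.

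HNRNPM was measured at 21.8 and 20.4 RPKM (reads scaled to exon length and to the library's assigned reads) in knockdown libraries 1 and 2, against 51.3 and 51.6 RPKM in wild-type libraries 1 and 2. Its log2 fold change, knockdown over wild type, was -1.35 ± 0.07 (limma's standard error, SE; limma adjusted p = 0.00270), so the libraries matched their labels. The assigned reads were 12708165 and 11498663 in the knockdown libraries and 18317579 and 19659106 in the wild-type libraries. Of the markers of a liver cancer line, KRT8 and KRT18 were abundant (438 to 672 RPKM in knockdown and 278 to 538 RPKM in wild-type libraries), SERPINA1 was near 4 RPKM (3.98 to 4.03 in knockdown and 3.60 to 4.47 in wild-type libraries), and AFP stayed at 0.267 to 0.362 RPKM in knockdown and 0.297 to 0.436 RPKM in wild-type libraries. ALB, at 1.75 and 1.78 RPKM in knockdown and 5.35 and 6.28 RPKM in wild-type libraries, was called lower (log2 fold change -1.72, limma adjusted p = 0.00366), as was APOB (-0.93, adjusted p = 0.0206), while KRT18 was called higher (0.47, adjusted p = 0.0382). Other genes overlap 16.3% of the exon of KRT18 and 7.63% of that of KRT8. The keratins carried the summed level of all 10 such markers, which was 1084 and 1129 RPKM in knockdown and 891 and 796 RPKM in wild-type libraries. The 4 fibroblast markers summed to 0.643 and 0.726 RPKM in knockdown and 0.190 and 0.254 RPKM in wild-type libraries, with no marker reaching 1 RPKM and 2 called higher (COL1A1 and PDGFRB). The 4 endothelial markers summed to 6.78 and 7.19 RPKM in knockdown and 9.55 and 10.2 RPKM in wild-type libraries, most of it PECAM1, which was called lower (log2 fold change -0.63, limma adjusted p = 0.00842), as was CDH5 (-0.82, adjusted p = 0.0330). The 5 immune markers measured summed to 62.1 and 60.5 RPKM in knockdown and 47.5 and 58.7 RPKM in wild-type libraries. CD68, which was not called, made up nearly all of this, and 85.8% of its exon overlaps other genes. CD14 was called lower, at 0.125 and 0.138 RPKM in knockdown and 0.839 and 0.728 RPKM in wild-type libraries (log2 fold change -1.98, limma adjusted p = 0.00462), and PTPRC was listed at 0 in all libraries but knockdown library 1. The part of these markers in the heat shock results was not tested.

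The 10 genes did not move as a block. CRYAB and HSPA6, the 2 least abundant, had the largest increases, with limma folds of 2.91 and 2.09. These folds were taken after 0.1 RPKM was added to every value, which understates changes at low levels. DNAJB1 and HSPB1 rose by folds of 1.43 and 1.48, and HSPH1 fell to a fold of 0.765. HSPA1A, HSPA1B, BAG3, HSP90AA1 and HSPA8 did not pass the test. Thus 4 genes were called higher and 1 lower at a limma adjusted p under 0.05, against 11.1% of all tested genes called higher, 13.8% called lower and 24.9% called in either direction. The median log2 fold change of the 10 was 0.09, against -0.03 over all 20221 tested genes. After scaling, 8 of the 10 had both knockdown libraries on 1 side of both wild-type libraries, against 67.6% of all tested genes. They were 5 higher and 3 lower, against 31.0% higher and 36.6% lower of all tested genes. Without knockdown replicate 1, 3 members were called higher and 0 lower. Without knockdown replicate 2 these counts were 2 and 0, without wild-type replicate 1 they were 4 and 0, and without wild-type replicate 2 they were 3 and 1.

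**Figure D1:**
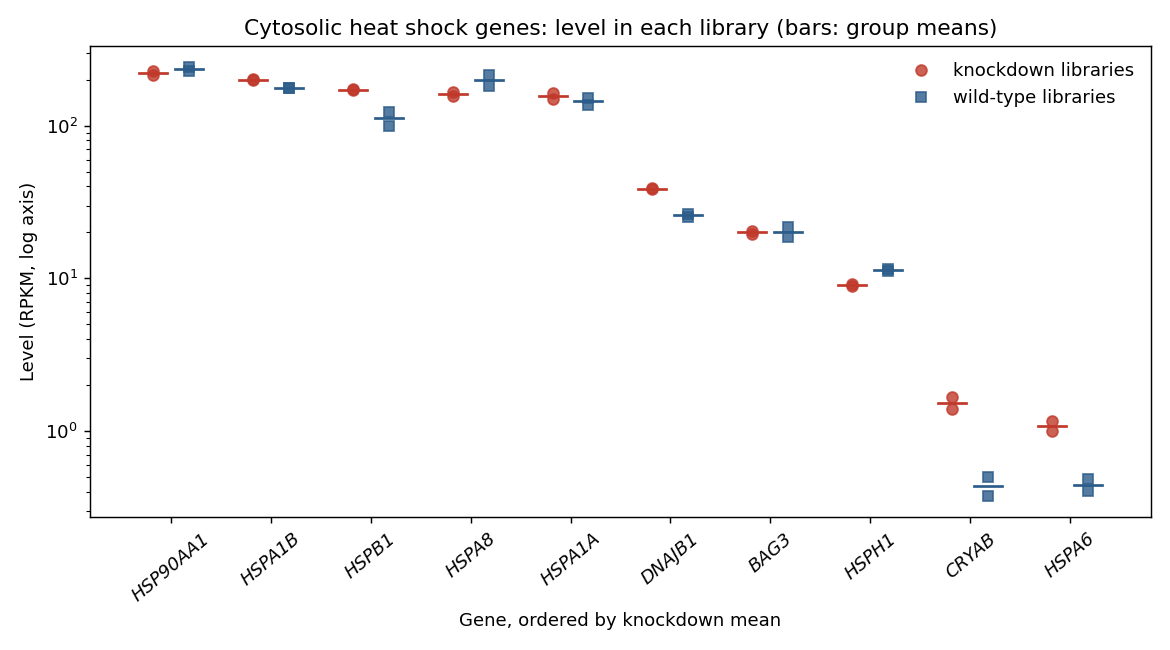
Level of each heat shock gene in RPKM (log axis) in the 2 knockdown libraries (red circles) and the 2 wild-type libraries (blue squares), with bars at the group means. HSP90AA1, HSPA1A, HSPA1B, HSPA8 and HSPB1 lie at or above 100 RPKM in every library, while CRYAB and HSPA6 lie below 2 RPKM in every library and show the widest gap between the groups.

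The levels spanned more than 2 orders of magnitude. In knockdown cells the order was HSP90AA1 (221 ± 10.7 RPKM), HSPA1B (200.3 ± 2.75), HSPB1 (172 ± 3.46), HSPA8 (162 ± 8.01), HSPA1A (157 ± 9.61), DNAJB1 (38.6 ± 0.393), BAG3 (20.0 ± 0.563), HSPH1 (9.07 ± 0.118), CRYAB (1.53 ± 0.185) and HSPA6 (1.08 ± 0.126), all as mean ± SD (n = 2). HSPA8 and HSPA1A were neighbours whose libraries overlapped. In wild-type cells HSPA8 (198 ± 22.6 RPKM, SD, n = 2) came next after HSP90AA1, HSPB1 (112 ± 16.7) came after HSPA1A, and CRYAB and HSPA6, last in the order, overlapped. The 10 genes together took 0.344% and 0.336% of assigned reads in the knockdown libraries and 0.358% and 0.327% in the wild-type libraries, so the groups overlapped in this share.

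Of the promoter windows in RefSeq (250 bases before to 50 after each transcript start, GRCh38.p14), 7 are shown because they hold the letters of a heat shock element in members that rose (HSPA6, DNAJB1 and HSPB1) or did not pass (HSPA1A, HSPA1B, HSP90AA1 and HSPA8). Capitals mark every match to GAANNTTC or TTCNNGAA, which are their own reverse complements, so that 1 strand covers both. All sequences run 5′ to 3′ on the strand of the gene.
HSPA6, chr1:161524290-161524589, plus strand: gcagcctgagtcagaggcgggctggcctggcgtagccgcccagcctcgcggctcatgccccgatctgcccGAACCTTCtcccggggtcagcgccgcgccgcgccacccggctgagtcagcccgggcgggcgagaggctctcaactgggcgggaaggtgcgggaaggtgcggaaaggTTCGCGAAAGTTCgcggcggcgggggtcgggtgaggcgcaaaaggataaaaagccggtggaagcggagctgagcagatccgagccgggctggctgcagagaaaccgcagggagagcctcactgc
HSPA1A, chr6:31815293-31815592, plus strand: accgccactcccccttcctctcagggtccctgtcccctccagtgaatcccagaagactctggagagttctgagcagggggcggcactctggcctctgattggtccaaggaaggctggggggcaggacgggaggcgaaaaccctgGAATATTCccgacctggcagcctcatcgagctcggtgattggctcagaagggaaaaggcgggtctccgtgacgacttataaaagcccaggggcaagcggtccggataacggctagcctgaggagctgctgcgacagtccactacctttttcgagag
HSPA1B, chr6:31827488-31827787, plus strand: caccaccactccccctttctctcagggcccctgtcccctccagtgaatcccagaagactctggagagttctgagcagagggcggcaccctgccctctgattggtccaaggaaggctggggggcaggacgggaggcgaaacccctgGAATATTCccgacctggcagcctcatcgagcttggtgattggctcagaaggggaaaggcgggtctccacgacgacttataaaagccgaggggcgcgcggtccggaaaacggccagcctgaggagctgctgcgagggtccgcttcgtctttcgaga
DNAJB1, chr19:14518348-14518647, minus strand: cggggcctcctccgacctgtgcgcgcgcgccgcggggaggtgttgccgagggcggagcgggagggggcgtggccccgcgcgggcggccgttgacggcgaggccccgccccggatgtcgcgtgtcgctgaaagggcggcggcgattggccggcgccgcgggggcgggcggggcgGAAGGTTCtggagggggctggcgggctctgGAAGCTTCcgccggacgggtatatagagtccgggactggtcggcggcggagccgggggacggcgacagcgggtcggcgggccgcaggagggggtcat
HSP90AA1, chr14:102086995-102087294, minus strand: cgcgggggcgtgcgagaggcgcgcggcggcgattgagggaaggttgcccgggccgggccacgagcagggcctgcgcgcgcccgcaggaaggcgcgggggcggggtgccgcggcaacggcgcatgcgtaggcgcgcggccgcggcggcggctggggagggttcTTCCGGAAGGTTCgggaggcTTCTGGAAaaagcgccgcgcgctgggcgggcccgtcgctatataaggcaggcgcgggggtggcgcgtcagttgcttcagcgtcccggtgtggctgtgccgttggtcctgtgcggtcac
HSPB1, chr7:76302423-76302722, plus strand: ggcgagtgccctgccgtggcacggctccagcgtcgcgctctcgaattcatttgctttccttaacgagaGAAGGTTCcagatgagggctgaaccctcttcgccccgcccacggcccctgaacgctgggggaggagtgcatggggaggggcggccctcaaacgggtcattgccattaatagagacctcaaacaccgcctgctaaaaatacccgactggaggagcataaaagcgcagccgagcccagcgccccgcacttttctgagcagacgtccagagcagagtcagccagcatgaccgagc
HSPA8, chr11:123062087-123062386, minus strand: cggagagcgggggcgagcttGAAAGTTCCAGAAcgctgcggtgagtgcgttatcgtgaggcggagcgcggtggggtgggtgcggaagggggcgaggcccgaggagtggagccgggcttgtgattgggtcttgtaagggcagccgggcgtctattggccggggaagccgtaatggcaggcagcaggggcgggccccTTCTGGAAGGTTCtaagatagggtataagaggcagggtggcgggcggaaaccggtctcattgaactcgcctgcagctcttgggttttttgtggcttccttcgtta

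A 2-unit match was found in 13.5% of all 35116 windows of this length, and 2 or more in 1.71%. The longer 3-unit forms, GAANNTTC followed by NNGAA or TTCNNGAA followed by NNTTC, overlap the 2-unit matches, are reverse complements of each other, and were found in 0.490% of windows. The constitutive HSPA8 held the most, with 4 matches starting at -230, -225, -55 and -50 from the transcript start, which form 2 of the 3-unit elements. HSPA6 held 3 matches (-180, -74 and -69) and 1 of the longer form, and so did HSP90AA1 in its inner window (-88, -83 and -68). DNAJB1 had 2 matches in the window shown (-77 and -47) and 1 in another of its 3 windows, and HSPB1 had 1 (-182). HSPA1A and HSPA1B had the same 8 letters at -106 and -105, and their windows were identical in 277 of 299 aligned bases. BAG3 and HSPH1 had no match in their windows. No window was available for CRYAB, which is named only. Only exact letters within these windows were searched for, so inexact elements and elements elsewhere would be missed in any of the genes. The 4 genes with 3 or more matches over their windows included 2 that rose (HSPA6 and DNAJB1) and 2 that did not pass the test (HSPA8 and HSP90AA1). DNAJB1 reached 3 only over its windows together. A 2-unit match in any window was found in 16.2% of 27305 genes, and the share with 3 or more was not counted.

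HSPA1A and HSPA1B are neighbouring single-exon genes in the major histocompatibility complex on chromosome 6 (GRCh38 positions 31815464 to 31817946 and 31827735 to 31830255, plus strand) and encode the major inducible HSP70. HSPA1A had 149.8 and 163.4 RPKM in knockdown libraries 1 and 2, against 151.9 and 136.2 RPKM in wild-type libraries 1 and 2. The groups overlapped, with 0.06 ± 0.09 (SE) as the log2 fold change and 0.664 as limma's adjusted p. HSPA1B had 198.4 and 202.3 RPKM in the knockdown libraries, against 177.3 and 176.5 RPKM in the wild-type libraries. Both knockdown libraries were higher, by 0.12 ± 0.07 on the log2 scale, but limma's test was not passed (adjusted p = 0.272, 95% interval of the fold 0.960 to 1.22). The transcripts are identical in 96.0% of aligned bases, and 63.2% of the 150-base stretches of HSPA1A and 70.0% of those of HSPA1B also occur in another gene, so reads can be split between them and each value is uncertain. Merged into 1 gene, their log2 fold change was 0.09 ± 0.08 (limma adjusted p = 0.465).

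HSPA6 (chromosome 1, positions 161524540 to 161526910, plus strand, a single exon) encodes HSP70B′, an HSP70 that is nearly silent in unstressed human cells. It had 0.996 and 1.17 RPKM in the knockdown libraries, against 0.484 and 0.408 RPKM in the wild-type libraries. These rest on 30 and 32 reads in the knockdown and 21 and 19 reads in the wild-type libraries. Both knockdown libraries were higher, while the counting intervals of knockdown library 1 (0.672 to 1.42 RPKM) and wild-type library 1 (0.299 to 0.739 RPKM, exact 95% Poisson, counting error only) overlapped. The log2 fold change was 1.06 ± 0.19 (limma adjusted p = 0.0156). It did not pass without knockdown replicate 2 (0.95 on the log2 scale, limma adjusted p = 0.0536), without wild-type replicate 2 (0.97, adjusted p = 0.0698) or without a filter on low values (adjusted p = 0.105). With a pseudocount of 1 it was 0.50, and the filter of 50 reads in 2 libraries removed it. Its near copy HSPA7, with which it shares 15.2% of its 150-base stretches, can take its reads.

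DNAJB1 (chromosome 19, positions 14514770 to 14529770, minus strand) encodes the J protein HSP40, which hands substrates to HSP70. Knockdown libraries had 38.9 and 38.3 RPKM, against 26.3 and 25.4 RPKM in wild-type libraries, from 1617 to 1813 reads in knockdown and 1772 to 1833 reads in wild-type libraries. The pairs were tight and well apart. Its log2 fold change of 0.51 ± 0.06 (limma adjusted p = 0.00667, fold 1.28 to 1.59 as the 95% interval) stayed between 0.49 and 0.57 and past the threshold under all 13 alternatives. On the opposite strand TECR overlaps 6.21% of its exons, at 9.02 and 8.72 RPKM in knockdown and 10.1 and 10.5 RPKM in wild-type libraries.

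BAG3 (chromosome 10, positions 119651370 to 119677819, plus strand) encodes a co-chaperone that releases clients from HSP70 and steers them to autophagy. It had 20.4 and 19.6 RPKM in the knockdown libraries, against 21.6 and 18.6 RPKM in the wild-type libraries. The wild-type libraries lay on either side of both knockdown libraries. Its log2 fold change was -0.07 ± 0.09 (limma adjusted p = 0.613), with a 95% interval of the fold from 0.821 to 1.11.

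HSPB1 (chromosome 7, positions 76302544 to 76304295, plus strand) encodes HSP27, a small heat shock protein that holds unfolding proteins in solution and binds actin. It had 170.0 and 174.9 RPKM in the knockdown libraries, against 123.8 and 100.2 RPKM in the wild-type libraries. All knockdown values were higher, and the wild-type libraries differed from each other more than the knockdown libraries did. Its log2 fold change was 0.57 ± 0.11 (limma adjusted p = 0.0201). It did not pass without knockdown replicate 1 (0.60 on the log2 scale, limma adjusted p = 0.0619), without knockdown replicate 2 (0.54, adjusted p = 0.0739) or without a filter on low values (adjusted p = 0.0890).

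CRYAB (chromosome 11, positions 111908565 to 111923722, minus strand) encodes alpha-B crystallin, a small heat shock protein of lens and muscle. It had 1.40 and 1.66 RPKM in the knockdown libraries, against 0.378 and 0.503 RPKM in the wild-type libraries, from 54 and 58 reads and from 21 and 30 reads. The counting intervals of the knockdown libraries began at 1.05 and 1.26 RPKM, above the upper ends in the wild-type libraries of 0.578 and 0.718 RPKM. Its log2 fold change of 1.54 ± 0.20 (limma adjusted p = 0.00768) lay above those of 99.4% of tested genes. The threshold was missed without a filter on low values (adjusted p = 0.0616), and a pseudocount of 1 gave 0.78. HSPB2, another small heat shock gene, runs head to head with CRYAB and overlaps 20.6% of its exons, but was listed at 0 in both knockdown libraries. The read-through gene HSPB2-C11orf52, which overlaps 18.1%, had 0.994 and 1.01 RPKM in knockdown and 0.849 and 0.692 RPKM in wild-type libraries, and no source used here states whether counting used strand.

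HSPH1 (chromosome 13, positions 31134974 to 31162388, minus strand) encodes HSP110, which exchanges the nucleotide of HSP70 and helps it to dissolve aggregates. It had 9.15 and 8.99 RPKM in the knockdown libraries, against 11.5 and 11.2 RPKM in the wild-type libraries. Both knockdown libraries were lower, and each pair was close together. The log2 fold change of -0.39 ± 0.07 passed (limma adjusted p = 0.0196). With 3 libraries it did not, with log2 fold changes of -0.39 without knockdown replicate 1 (limma adjusted p = 0.0885), -0.38 without knockdown replicate 2 (adjusted p = 0.0897), -0.38 without wild-type replicate 1 (adjusted p = 0.0562) and -0.39 without wild-type replicate 2 (adjusted p = 0.0556).

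HSP90AA1 (chromosome 14, positions 102080738 to 102139699, minus strand) encodes the inducible HSP90, a chaperone of kinases and steroid receptors. It had 228.9 and 213.8 RPKM in the knockdown libraries, against 240.8 and 229.2 RPKM in the wild-type libraries. The nearest libraries of the groups lay within 1 RPKM of each other. Its log2 fold change was -0.15 ± 0.08 (limma adjusted p = 0.202). HSP90AB1, the constitutive HSP90, was more abundant, at 497 and 479 RPKM in knockdown and 415 and 426 RPKM in wild-type libraries, and its difference of 0.15 ± 0.09 on the log2 scale did not pass either (limma adjusted p = 0.243).

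HSPA8 (chromosome 11, positions 123057489 to 123063230, minus strand) had 167.3 and 156.0 RPKM in the knockdown libraries, against 213.9 and 181.9 RPKM in the wild-type libraries. Both knockdown libraries were lower, and wild-type library 1 was the highest of all. The log2 fold change of -0.35 ± 0.10 missed the threshold (limma adjusted p = 0.0507, 95% interval of the fold 0.662 to 0.927). It passed without wild-type replicate 2 (-0.46 on the log2 scale, limma adjusted p = 0.0305), with a stricter filter on low values (adjusted p = 0.0242) and by limma-voom (adjusted p = 0.00111). Introns of HSPA8 carry small nucleolar RNAs, and its counted exons overlap SNORD14C and SNORD14D. SNORD14D, of 87 bp, had 301 and 246 RPKM in the knockdown libraries, against 113 and 124 RPKM in the wild-type libraries, a log2 fold change of 1.14 ± 0.12 (limma adjusted p = 0.00521). SNORD14C had 76.0 and 55.3 RPKM in knockdown and 90.6 and 78.0 RPKM in wild-type libraries and did not pass (log2 fold change -0.44 ± 0.16, limma adjusted p = 0.0960). SNORD14D thus had the opposite sign to its host HSPA8, and SNORD14C the same sign. SNORD14E, which does not overlap these exons, had 18 and 8 reads in knockdown and 22 and 21 reads in wild-type libraries. Its log2 fold change of -0.25 ± 0.31 also had the sign of HSPA8 and did not pass (limma adjusted p = 0.589).

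**Figure D2:**
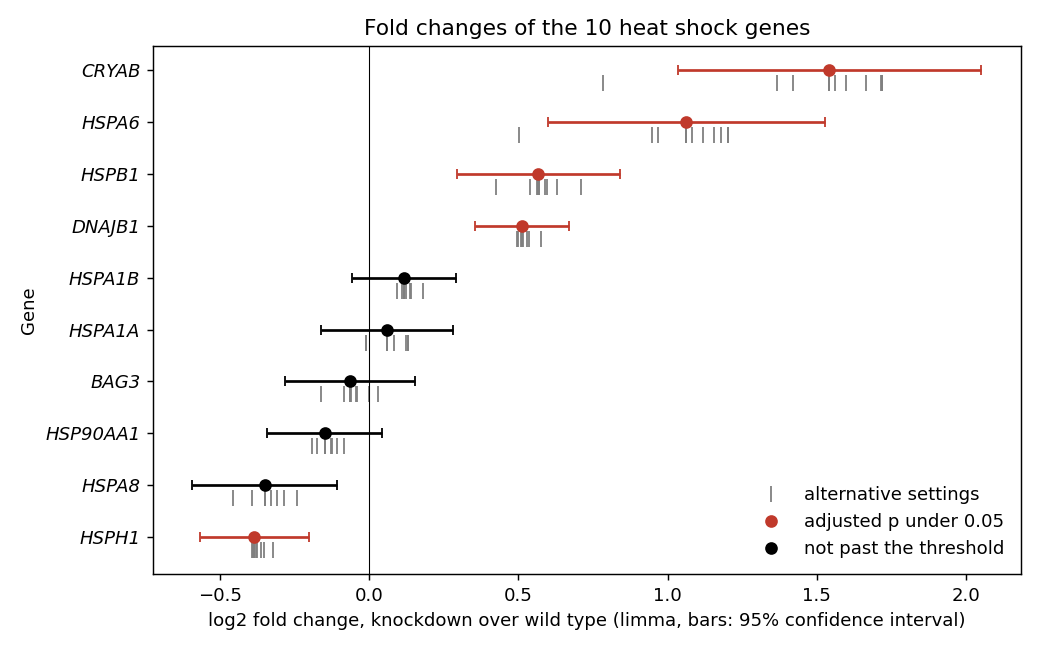
Log2 fold change, knockdown over wild type, of the 10 heat shock genes (points), with limma's 95% confidence intervals as bars. Red marks an adjusted p under 0.05. Grey ticks show the values under the alternative settings, 13 for each gene but HSPA6, which has 12. The merged fit of HSPA1A and HSPA1B is not drawn. CRYAB, HSPA6, HSPB1 and DNAJB1 lie to the right of 0 and HSPH1 to the left, and HSPA1B, HSPA1A, BAG3 and HSP90AA1 have intervals that include 0.

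Inducible and constitutive genes were set against each other within each library, where no scaling between libraries enters. The summed level of HSPA1A and HSPA1B was 348 and 366 RPKM in the knockdown libraries, against 329 and 313 RPKM in the wild-type libraries, so the inducible HSP70 pair exceeded HSPA8 in all 4 libraries. Its ratio to HSPA8 was 2.08 and 2.34 in knockdown and 1.54 and 1.72 in wild-type libraries. DNAJB1 over HSPA8 was 0.232 and 0.245 in knockdown and 0.123 and 0.140 in wild-type libraries. BAG3 over HSPA8 was 0.122 and 0.126 in knockdown and 0.101 and 0.103 in wild-type libraries. In each of these 3 ratios both knockdown libraries were higher, with log2 differences of 0.44, 0.86 and 0.29. HSP90AA1 over HSP90AB1 went the other way, at 0.461 and 0.446 in knockdown and 0.580 and 0.538 in wild-type libraries (log2 difference -0.30). HSPH1 over HSPA8 overlapped between the groups, at 0.0547 and 0.0576 in knockdown and 0.0538 and 0.0617 in wild-type libraries. An exact two-sided permutation test gave p = 0.33 for each of the 4 ratios that did not overlap, the smallest that 2 libraries against 2 allow, and p = 1 for HSPH1 over HSPA8, so none can pass a threshold. None of HSPA1A, HSPA1B, BAG3, HSP90AA1 and HSPA8 had passed limma's test on its own level. The 3 ratios that were higher in knockdown share HSPA8 as denominator, and its own log2 fold change was -0.35. Those of the numerators were 0.09 for the merged HSPA1 pair, 0.51 for DNAJB1 and -0.07 for BAG3. For level alone, 67.6% of all tested genes had groups that did not overlap after scaling.

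**Figure D3:**
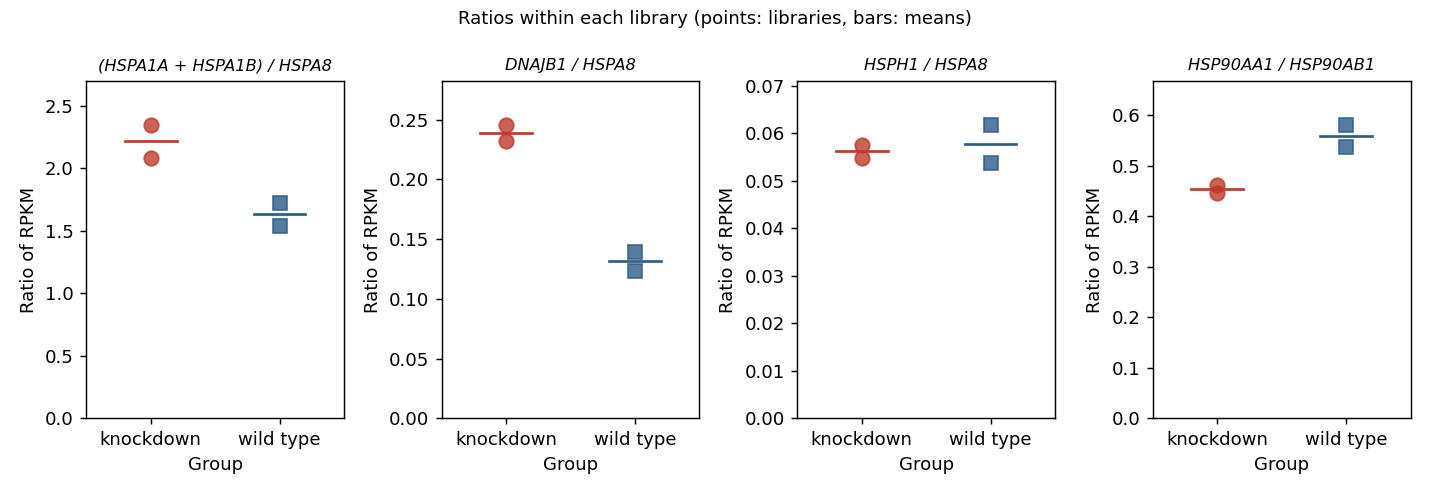
Ratios of RPKM within each library for knockdown (red circles) and wild-type cells (blue squares), with bars at the group means and axes that start at 0. The ratio of the HSPA1 pair to HSPA8 is above 2 in both knockdown libraries and below 2 in both wild-type libraries, while HSPH1 over HSPA8 overlaps.

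By class, 2 of the 5 strongly inducible genes were called higher and 0 lower (median log2 fold change 0.12), where 11.1% of all tested genes were called higher and 13.8% lower. Of the 4 genes that are inducible and often expressed at rest, 2 were called higher and 1 lower (median 0.21), although CRYAB of this class was nearly silent here. Among 12 constitutive cytosolic comparators other than HSPA8, 3 were called higher and 0 lower (median 0.07). These were BAG1, a nucleotide exchange factor (0.62 ± 0.09, limma adjusted p = 0.00929), ST13, the HSP70 partner HIP (0.35 ± 0.07, adjusted p = 0.0259), and CDC37, the kinase adaptor of HSP90 (0.27 ± 0.07, adjusted p = 0.0351). With 3 libraries this count was 2 without wild-type replicate 1 and 1 in each of the other fits. ST13, HSP90AB1 and others of these comparators also stand in the list of other HSF1 targets below, so the lists overlap. Genes listed as constitutive were called higher too, and no difference between the classes was tested.

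**Figure D4:**
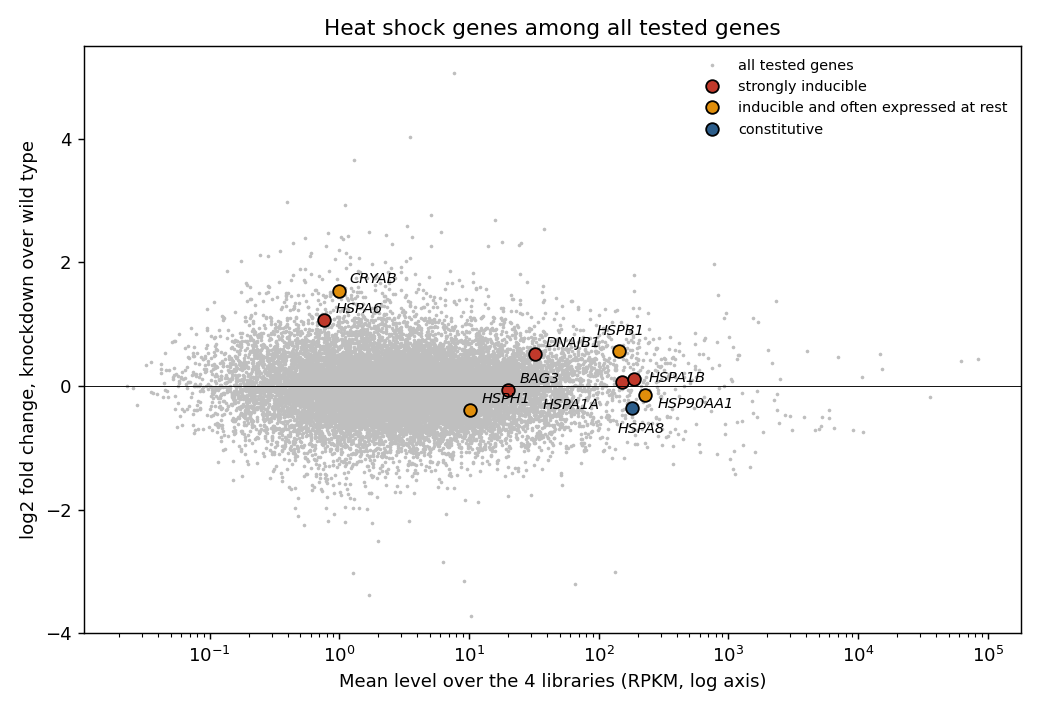
Log2 fold change, knockdown over wild type, against mean level over the 4 libraries (RPKM, log axis) for all 20221 tested genes (grey) and the 10 heat shock genes, coloured by class. The 2 heat shock genes with the largest increases, CRYAB and HSPA6, are the 2 with the lowest levels, and those above 100 RPKM lie between -0.35 and 0.57.

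The factors that control this programme were uneven. HSF1 itself, the main activator, had 15.5 and 15.3 RPKM in the knockdown libraries, against 16.3 and 14.4 RPKM in the wild-type libraries, and did not pass (log2 fold change -0.06 ± 0.08, limma adjusted p = 0.641). HSF2, a related factor that can pair with HSF1, fell to 1.57 and 1.42 RPKM in knockdown libraries, against 3.33 and 3.31 RPKM in wild-type libraries (log2 fold change -1.16 ± 0.13, limma adjusted p = 0.00565). It remained lower and past the threshold under all 13 alternatives. HSF family members and HSF1 regulators numbered 9, of which 3 were called higher and 1 lower, beside 11.1% and 13.8% of all tested genes. The 3 were JMJD6, a protein hydroxylase (0.55 ± 0.10, limma adjusted p = 0.0149), HSBP1, which binds the HSF1 trimer and restrains it (0.45 ± 0.10, adjusted p = 0.0261), and IER5, which promotes HSF1 activity (0.35 ± 0.08, adjusted p = 0.0351). With 3 libraries the count of higher genes was 0 without knockdown replicate 1 and 1 without knockdown replicate 2, wild-type replicate 1 or wild-type replicate 2.

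Most other chaperone genes listed as cytosolic did not pass, and neither did most tested genes, of which 11.1% were called higher and 13.8% lower. The lists were drawn by name, and where each protein resides was not tested. Of 71 other genes listed as cytosolic or HSF1-related and tested, each counted once, 58 did not pass, 9 were higher and 4 lower. In a list of 20 other HSF1 targets 2 were called higher and 0 lower, with a median of -0.02. ST13 was among them, while STIP1, which links HSP70 to HSP90, had -0.23 ± 0.07 (limma adjusted p = 0.0616) and UBB 0.19 ± 0.08 (adjusted p = 0.148). The count of higher genes in this list was 0 without knockdown replicate 1, without knockdown replicate 2 or without wild-type replicate 2, and 1 with median-of-ratios factors. Among 14 HSP90 and co-chaperone genes CDC37 alone was called, and it was not called in any of the 4 fits with 3 libraries. STIP1, AHSA2 (-0.27 ± 0.10, adjusted p = 0.0978) and PPID (0.15 ± 0.08, adjusted p = 0.210) came next. Of 14 J proteins listed as cytosolic, DNAJC8, a splicing-associated J protein (0.50 ± 0.09, adjusted p = 0.0161), and DNAJB2 (0.50 ± 0.10, adjusted p = 0.0210) were higher and 0 lower. DNAJB12 had -0.26 ± 0.09 (adjusted p = 0.0903) and DNAJB5 0.43 ± 0.17 (adjusted p = 0.121). The number of J proteins called was 0 without knockdown replicate 1 and 1 in each other fit with 3 libraries. Without a filter on low values, no J protein, HSP90 co-chaperone, other HSF1 target or TRiC subunit was past the threshold in these lists, and none of the 3 HSF1 regulators.

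The remaining lists were split by family, and their counts stand beside the same shares of all tested genes (11.1% higher and 13.8% lower). In the HSP70 exchange factors and partners, BAG1 and ST13 were higher and BAG6, a quality control factor, was lower (-0.27 ± 0.07, limma adjusted p = 0.0381), of 8 genes in all, and HSPBP1 had -0.25 ± 0.08 (adjusted p = 0.0724). BAG6 was not called in any fit with 3 libraries, nor with median-of-ratios factors (adjusted p = 0.0558) or values as deposited (adjusted p = 0.0752), nor without a filter on low values (adjusted p = 0.0783). Without knockdown replicate 1, knockdown replicate 2 or wild-type replicate 2, 1 gene of this list was called higher. None of 8 other HSP70 and HSP110 genes passed limma's test (1 had an unadjusted p under 0.05, and limma-voom called 2 higher and 0 lower), with HSPA2 at 0.46 ± 0.15 (adjusted p = 0.0751), HSPA12A at 0.23 ± 0.09 (adjusted p = 0.124), HSPA13 at -0.28 ± 0.12 (adjusted p = 0.141) and HSPA1L at 0.38 ± 0.17 (adjusted p = 0.150). Of 7 other small heat shock genes 4 were tested and 0 called, with HSPB6 at 0.88 ± 0.25 (adjusted p = 0.0543), HSPB11 at 0.55 ± 0.17 (adjusted p = 0.0655), HSPB8 at 0.27 ± 0.15 (adjusted p = 0.233) and HSPB7 at 0.32 ± 0.43 (adjusted p = 0.622). Of these, 2 had an unadjusted p under 0.05, and limma-voom and the filter of 50 reads called 2 higher. HSPB6 passed with median-of-ratios factors (adjusted p = 0.0473), values as deposited (adjusted p = 0.0444) and a pseudocount of 1 (adjusted p = 0.0480). The TRiC chaperonin, a ring that folds actin and tubulin, had 2 of 8 subunits lower and 0 higher, with all 8 log2 fold changes between -0.58 and -0.06. CCT3 had -0.58 ± 0.10 (adjusted p = 0.0128), CCT5 -0.30 ± 0.07 (adjusted p = 0.0365), CCT2 -0.27 ± 0.08 (adjusted p = 0.0644) and CCT6A -0.24 ± 0.10 (adjusted p = 0.138). The count of lower subunits was 0 without knockdown replicate 1 or 2 and 1 without wild-type replicate 1, and CCT5 was not called with values as deposited (adjusted p = 0.0777). HSPB6, AHSA2, CCT5, PPID, UBB and HSPA12A overlap exons of other genes over 11.2% to 38.9% of their length and are uncertain.

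In counts of lower genes, endoplasmic reticulum chaperones lay above the share of all tested genes, and mitochondrial chaperones near it. Of all tested genes, 13.8% were called lower and 11.1% higher. In the endoplasmic reticulum 11 of 14 genes were called lower and 0 higher, with a median log2 fold change of -0.51. HYOU1, the HSP110 of this compartment, had -0.85 ± 0.09 (limma adjusted p = 0.00528), PDIA4, a disulfide isomerase, -0.84 ± 0.09 (adjusted p = 0.00557), HSPA5 (BiP), its HSP70, -0.62 ± 0.07 (adjusted p = 0.00537) and PDIA3 -0.49 ± 0.07 (adjusted p = 0.0106). PDIA3 is uncertain, since 18.9% of its exons overlaps other genes. The number lower was 5 and 4 without knockdown replicates 1 and 2, 7 without either wild-type replicate, and 4 without a filter on low values. In mitochondria 2 of 12 were lower and 0 higher (median -0.13), CLPB, a disaggregase (-0.52 ± 0.09, adjusted p = 0.0138), and HSPA9, the mitochondrial HSP70 (-0.26 ± 0.07, adjusted p = 0.0463). LONP1 had -0.22 ± 0.06 (adjusted p = 0.0561) and GRPEL1 0.26 ± 0.10 (adjusted p = 0.113). HSPA9 was not called with median-of-ratios factors (adjusted p = 0.0726), values as deposited (adjusted p = 0.108), robust moderation (adjusted p = 0.0624) or no filter on low values (adjusted p = 0.104). The mitochondrial count was 1 without knockdown replicate 1 and 0 without knockdown replicate 2 or wild-type replicate 1. HSPA5, HSPA9 and HSPA8, HSP70 genes of the 3 compartments, all had negative log2 fold changes, and HSPA8 did not pass. The median over all tested genes was itself negative (-0.03), and no trend shared by these genes was tested.

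**Figure D5:**
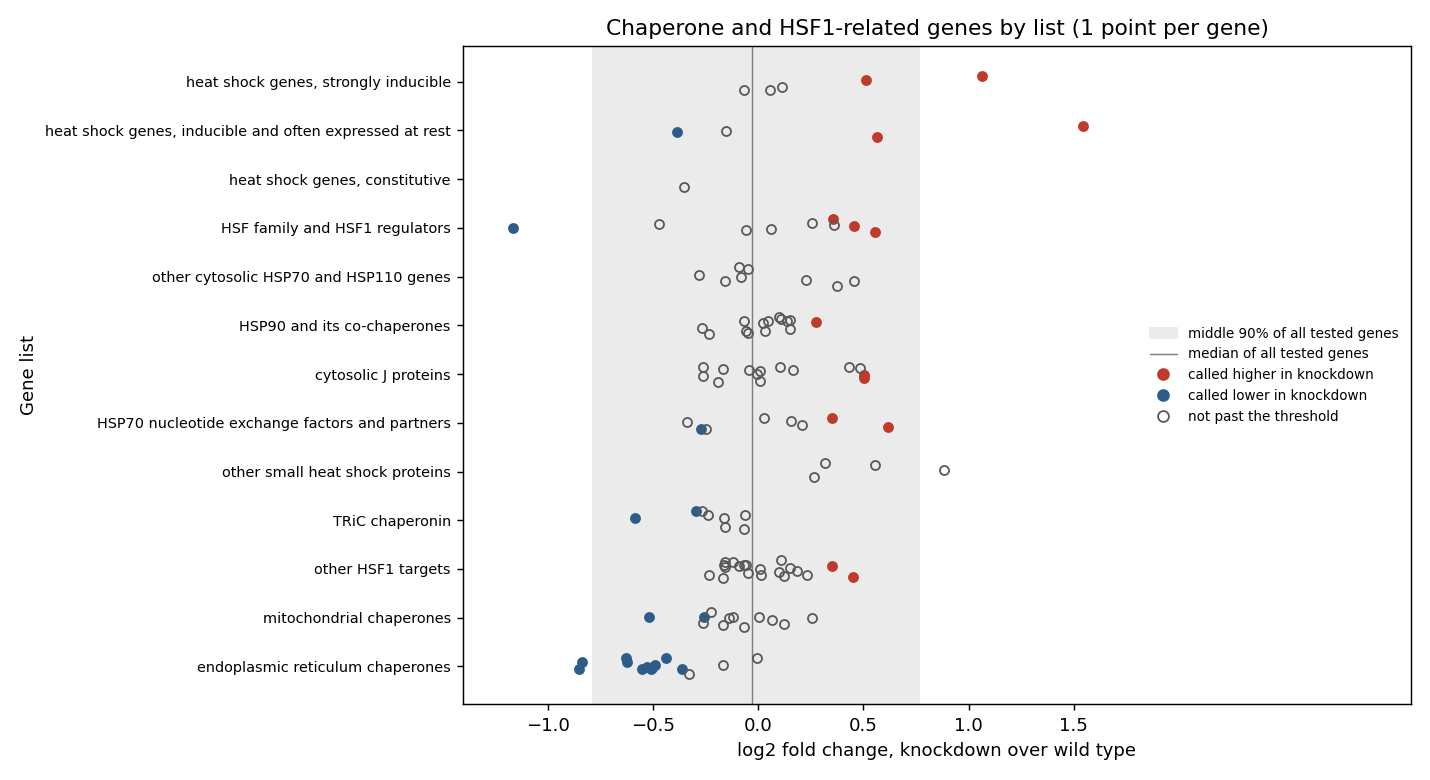
Log2 fold change, knockdown over wild type, of each tested gene by list (red called higher, blue called lower, open circles not past the threshold), with the range from 5% to 95% of all tested genes shaded and their median as a line. The endoplasmic reticulum list lies left of the median except for 1 gene, while the TRiC list lies left of it, the other small heat shock proteins lie right of it, and the other cytosolic lists with more than 1 gene lie on both sides.

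The genes whose profile over the 4 libraries lay nearest to that of HSPA8, by the root mean square difference of log2 values centred on the wild-type mean, were PAXIP1, CTU1, C1QBP, E2F6 and RPP38 (0.010 to 0.020). Those nearest to DNAJB1 were HRH1, ANKRD42, CCDC34, TBCA and COG6 (0.015 to 0.020). With 4 libraries this likeness singles out little, since 764 and 616 of 12972 genes lay within 0.1 of HSPA8 and of DNAJB1.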

How the data were processed

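Per the file headers, the authors deposited a table per library, with RPKM for every gene name over its exon length. The submitters' processing notes name StringTie 1.3.2, edgeR 3.12.1, Subread 1.5.1 with featureCounts, and Trimmomatic 0.36. Not given in the sources used here were aligner, strand setting and any molecular identifiers. Those notes list the build mm9, but of 26367 names found once in GENCODE 29 (GRCh38), 93.8% had the same start and end, as did all 10 members. Since RPKM times length came to whole reads (within 0.01 read), reads per gene were recovered.

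RPKM values were divided by TMM factors (1.03 and 1.02 for knockdown, 0.984 and 0.972 for wild-type libraries) and put on a log2 scale after adding 0.1. The test was that of limma (version 3.58.1, R 4.3.3), with group as the only term, a spread moderated along mean level, and Benjamini-Hochberg adjustment over all 20221 genes. Fold changes on this scale understate changes of genes at low levels. Genes entered with 15 reads in total and, in 2 or more libraries, a level worth 10 reads at median depth. Levels are as deposited. The procedure was run on simulated data in which the spread beyond counting error was alike for every gene, and no result here draws on it. The members, their classes and the lists were chosen with earlier results of these data known. Named by rule are the members, HNRNPM, up to 4 genes per list with the smallest adjusted p, and the 5 profiles nearest to HSPA8 and to DNAJB1. HSF1, HSP90AB1, SNORD14E, the markers and the genes that overlap members were named outside it, after values had been seen. The values of 1 gene that the rule names are not reported here. Alternatives were other factors, pseudocounts and filters, limma-voom, robust moderation, a replicate block and leaving out each library.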

Additional observations from a re-analysis of the deposited data

How the results depend on the processing

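DNAJB1, HSF2 and HNRNPM kept their direction and their side of the threshold under all 13 alternatives. So did BAG1, HSPA5, HYOU1 and PDIA4 among the other called genes named by rule. The genes called, 5032 in all (2240 higher and 2792 lower), numbered 2513 to 3218 with 1 library left out (968 to 1531 higher and 1322 to 1690 lower), 1806 without a filter on low values (693 higher and 1113 lower), where all 39306 names entered, and 7232 by limma-voom. With values scaled to total reads only, as deposited, 55.5% of calls were higher, against 44.5% with TMM factors, with 2783 higher and 2234 lower. Of the 10 members, 4 were called higher, with a range of 2 to 4 when 1 library was left out and 1 without the filter. Called lower was 1 member, with a range of 0 to 1 when 1 library was left out, and 2 with the filter of 50 reads, by limma-voom and with the replicate block, where HSPA8 was added to HSPH1. Signs turned only in genes that had not passed. With 1 library left out, HSPA1A ran from -0.012 (without knockdown replicate 2) to 0.13 and was -0.011 without wild-type replicate 2. BAG3 ran from -0.16 to 0.030 (without wild-type replicate 1), and HSPB7 from -0.19 (without knockdown replicate 2) to 0.83, with -0.08 without wild-type replicate 1. The cause was not tested. The replicate block gave 5129 genes called, and HSPA8 passed with it (adjusted p = 0.0312). Same-numbered libraries deviated together only weakly (r = 0.06 across genes), and the labels do not say that a number marks a shared day or batch. HSPA6 and CRYAB, with 19 to 58 reads per library, are limited by depth.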
